A study of Mus musculus with 4 samples.

Results

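The genes described here are chemokines and inflammatory cytokines of mouse embryonic fibroblasts, with 1 cytokine receptor: Cxcl1, Cxcl5, Cxcl12, Ccl2, Ccl7, Il6, Il18, Il1rl1, Lif and Csf1. They were taken by symbol, using every probe set annotated to that symbol alone. This gave 17 probe sets for 9 of the 10 genes, out of 45037 probe sets on the array, and Il1rl1 was not analysed here. The study asked which genes depend on PTIP, a nuclear protein encoded by Paxip1 that works with histone methyltransferases and in the DNA damage response. The PTIP -/- cells are immortalized fibroblasts with floxed Paxip1 alleles that received Cre recombinase from a retrovirus, and the PTIP +/+ cells are the same kind of floxed cells given the vector alone. Both carried the floxed alleles, both went through puromycin selection at 2.5 µg/ml, and both grew in medium with 10% serum. Each genotype gave 2 RNAs, numbered 1 and 2, for 4 arrays in all. Whether a number marks a separate culture, infection or day, whether the cells are 1 clone, and which promoter drives Cre is not stated by the sources at hand, so p-values measure only the spread between these RNAs, which may be technical.

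Chemokines are small secreted proteins that draw leukocytes along a gradient by binding G-protein-coupled receptors on them. CXC chemokines such as Cxcl1 and Cxcl5 act mainly on neutrophils through Cxcr2, CC chemokines such as Ccl2 and Ccl7 act mainly on monocytes, and Cxcl12 holds stem cells and lymphocytes in their niches through Cxcr4. Fibroblasts make several of these proteins when NF-kB, a transcription factor activated by Toll-like receptors and by the receptors of interleukin-1 and tumour necrosis factor, enters the nucleus. Il6 and Lif signal through the shared receptor chain gp130, Il18 belongs to the interleukin-1 family, Il1rl1 is the receptor of the related cytokine Il33, and Csf1 is the growth factor of macrophages.

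Upstream sequences are given for 3 of the genes that the results below turn on: Cxcl1, whose genotype difference had opposite signs in the replicate numbers, Csf1, which was lower in PTIP -/- on every probe set, and Il18, the only one of the tested genes whose genotypes did not overlap. Each is the 250 bases before the RefSeq transcription start in GRCm38.p6, 5′ to 3′ on the gene's strand, in capitals where it matches the NF-kB consensus on either strand.
Cxcl1, chr5:90890995-90891244, plus strand: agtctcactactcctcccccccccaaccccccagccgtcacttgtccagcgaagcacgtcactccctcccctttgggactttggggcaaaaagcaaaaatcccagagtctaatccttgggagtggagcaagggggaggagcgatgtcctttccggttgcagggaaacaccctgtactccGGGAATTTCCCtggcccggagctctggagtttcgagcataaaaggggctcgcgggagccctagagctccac
Csf1, chr3:107760470-107760719, minus strand: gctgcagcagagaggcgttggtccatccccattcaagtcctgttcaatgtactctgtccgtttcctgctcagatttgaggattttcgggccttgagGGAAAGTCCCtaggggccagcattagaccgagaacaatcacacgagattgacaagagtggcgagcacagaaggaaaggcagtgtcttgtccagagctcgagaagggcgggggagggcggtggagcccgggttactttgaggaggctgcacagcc
Il18, chr9:50554450-50554699, plus strand: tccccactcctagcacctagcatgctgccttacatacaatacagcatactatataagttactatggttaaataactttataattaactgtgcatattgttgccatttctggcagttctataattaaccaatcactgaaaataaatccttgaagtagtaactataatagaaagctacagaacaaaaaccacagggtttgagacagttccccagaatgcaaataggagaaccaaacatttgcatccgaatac
Upstream windows were at hand for 7 of the 10 genes, Il1rl1 with 2 starts. Cxcl5, Ccl2 and Ccl7 had no window and were not searched. The consensus overlapped itself on the opposite strands in Cxcl1, 71 and 70 bases before the start, was found once in Csf1, 154 bases before it, and once in Il6, 44 bases before it. The windows of Il18, Cxcl12, Lif and Il1rl1 did not hold those letters. Of 32851 windows of this length, 3.90% held the consensus. The AP-1 motif TGANTCA, in 6.75% of windows, was found once in Il6 and once in Lif, and the C/EBP motif TTGNGNAA, in 11.7%, once in Il6. The cyclic AMP response motif TGACGTCA, in 1.55%, was in none of the windows of these genes. Both strands were searched for every motif.

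Signals are linear intensities of a probe set on one array, and differences are in log2 signal, PTIP -/- minus PTIP +/+ unless stated. A signal of 47.68, below which 34.1% to 40.6% of probe sets lay on each array, was taken as the lowest that can be read as a level. Paxip1 itself read 43.5 and 74.6 in PTIP -/-, against 1029.5 and 1040.1 in PTIP +/+. Of the 10 fibroblast markers, 9 were bright enough to be tested. Vim was the brightest, at 30992.3 and 33293.8 in PTIP -/- and 31040.7 and 39291.8 in PTIP +/+. Of the 12 macrophage and leukocyte markers, 7 were bright enough to be tested and 0 passed. All 7 had a mean difference on the higher side, but 5 of the 7 had opposite signs in the numbers. Their median difference was 0.28 in number 1 and -0.059 in number 2. Summed over all 12 markers, the signal was 1469.3 and 1033.3 in PTIP -/- and 1151.9 and 871.5 in PTIP +/+. Csf1r, the receptor of Csf1, was the brightest of them (278.2 and 226.0 against 277.0 and 218.1), Itgam and Aif1 were below 47.68 on all arrays, and Ptprc read 34.8 and 51.5 against 51.8 and 11.4. Lyz2, a lysozyme of macrophages, read 333.3 and 99.9 against 153.4 and 36.0, which is 2.17-fold and at least 2.10-fold higher within the numbers. Fcer1g, an Fc receptor chain too dim to be tested, read 142.2 and 50.7 against 40 and 10.3, at least 2.98-fold and at least 1.06-fold higher. Summed signals of endothelial markers were 511.9 and 300.4 against 337.3 and 396.9, and of epithelial markers 1035.6 and 939.7 against 933.8 and 1585.5. Those of mast cell markers were 326.2 and 278.7 against 180.6 and 182.9, but 6 of the 8 were below 47.68 on all arrays. The 1 mast cell marker tested was higher in PTIP -/- in number 1 (1.34) and lower in number 2 (-0.16). Opposite signs in the numbers were also seen for all 3 endothelial markers tested and for 1 of the 5 epithelial ones. The part of other cell types in the results below was not tested, and in bulk RNA fewer cells of a type and less RNA per cell cannot be told apart.

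Il18 was higher without PTIP on both arrays, while Cxcl5, Ccl2 and Ccl7 were several-fold higher without PTIP in number 2, and Cxcl12, Lif and Csf1 were modestly lower. Of the 9 genes with a probe set, 8 passed the filter on dim signals, all but Il6. Cxcl5 passed it through its number 2 arrays alone. None of the 8 genes passed in limma at an adjusted p under 0.05 (0 of 8), where 0% of the 12509 genes tested did. Paxip1, the deleted gene, did not pass either, at a limma adjusted p of 0.999, so failing to pass does not show that a gene is unchanged. At an unadjusted p under 0.05 there was 1 of the 8, Il18, against 2.29% of all genes. The 8 genes had a median difference of 0.65, with 5 higher and 3 lower in PTIP -/-, beside a median of 0.05 over all genes. With 2 arrays against 2, exact permutation of the labels of 1 gene has 0.333 as its smallest two-sided p.

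**Figure D1:**
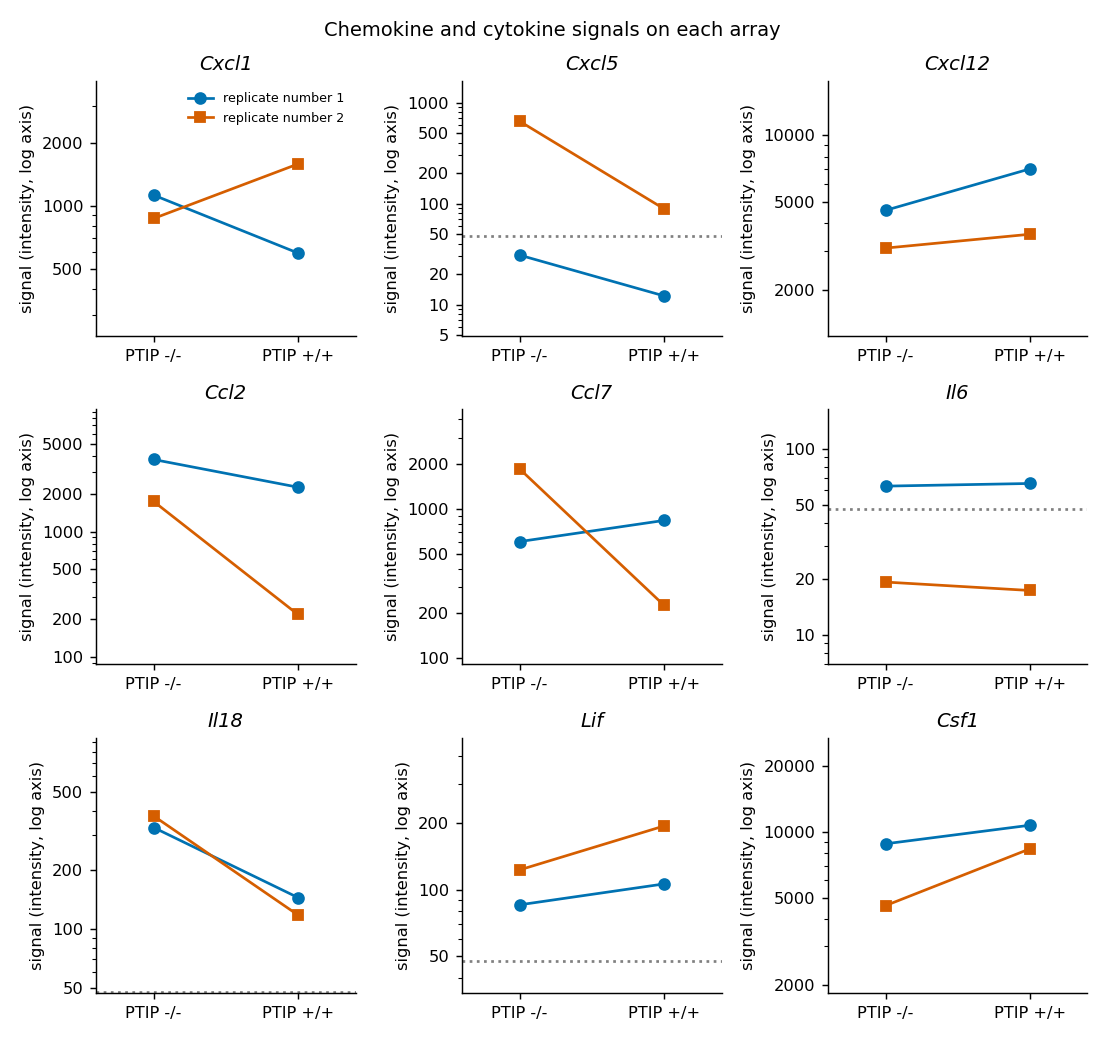
Signal (linear intensity on a log axis) of the brightest probe set of each of the 9 genes in PTIP -/- (left of each panel) and PTIP +/+ cells. Each point is 1 array, lines join arrays with the same replicate number, and the dotted line marks 47.68 where it falls inside the panel. The lines of Il18 run close together, with PTIP -/- above PTIP +/+ in both numbers, the lines of Cxcl1 and Ccl7 slope in opposite directions, and those of Cxcl5, Cxcl12, Ccl2, Lif and Csf1 lie apart by number.

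Cxcl1, a neutrophil attractant, had a genotype difference that turned round between the numbers. Its brightest probe set (gene 14825) read 1126.6 and 870.2 in PTIP -/- replicates 1 and 2, against 594.6 and 1587.6 in PTIP +/+ replicates 1 and 2. The genotypes overlapped, since the PTIP +/+ arrays held both the lowest and the highest signal. It was 1.89-fold higher in PTIP -/- in number 1 and 1.82-fold lower in number 2, so that the mean difference was 0.03 ± 0.56 (SE, n = 2 per genotype, limma adjusted p = 0.999). The other probe sets showed the same turn. The second read 502.2 and 730.4 against 285.9 and 2176.5, which is 1.76-fold higher in number 1 and 2.98-fold lower in number 2. The third read 246.8 and 754.2 against 174.6 and 2086.1, 1.41-fold higher and 2.77-fold lower. The identifier of the brightest ends in x, which on these arrays marks probes that may take up signal from other transcripts, and that probe set spread least over the 4 arrays. Averaged over its probe sets Cxcl1 was lower in PTIP -/-, at -0.28, and it was also lower, at -0.15, with arrays centred on their medians.

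Cxcl5, a second neutrophil attractant and a neighbour of Cxcl1 in the same chromosome cluster, was close to background in number 1 and higher without PTIP in number 2. Cxcl5 (gene 20311) read 30.9 and 655.9 in PTIP -/-, against 12.2 and 89.1 in PTIP +/+. Both number 1 arrays were below 47.68, so number 1 gives no fold, and in number 2 the PTIP -/- array was 7.36-fold higher. Over all arrays the measured difference was 2.11 ± 1.83 (SE, n = 2 per genotype, limma adjusted p = 0.999), with 1 array of each genotype below 47.68. Without PTIP -/- replicate 2 the difference was -0.094. Fits with an array left out have no number term, here and below. This value thus sets a number 1 array against PTIP +/+ arrays of both numbers, and mixes number with genotype.

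Cxcl12, which acts through Cxcr4, was lower in PTIP -/- in number 1 and differed less in number 2. Its brightest probe set (gene 20315) read 4565.0 and 3080.2 in PTIP -/-, against 7031.9 and 3557.9 in PTIP +/+. The PTIP -/- array was the lower of the pair in both numbers, by 1.54-fold and 1.16-fold, yet the genotypes overlapped because number 1 was brighter in both. The mean difference was -0.42 ± 0.46 (SE, n = 2 per genotype, limma adjusted p = 0.999). It was 0.076 without PTIP +/+ replicate 1, where number 2 alone stands for PTIP +/+ and number is mixed with genotype. The second probe set read 1555.2 and 1006.4 against 2505.5 and 983.2, with a PTIP -/- signal 1.61-fold lower in number 1 but 1.02-fold higher in number 2. The remaining, dim probe set, at 64.7 and 56.6 against 21.9 and 87.2, was at least 1.36-fold higher in PTIP -/- in number 1 and 1.54-fold lower in number 2.

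Ccl2, the main monocyte attractant, was higher without PTIP in both numbers but far more so in number 2. Ccl2 (gene 20296) read 3744.3 and 1736.5 in PTIP -/-, against 2254.2 and 218.8 in PTIP +/+. The PTIP +/+ replicate 2 array stood well below the other 3, and the genotypes overlapped. The fold was 1.66 higher in number 1 and 7.94 higher in number 2, giving a mean difference of 1.86 ± 1.25 (SE, n = 2 per genotype, limma adjusted p = 0.999). Leaving out PTIP +/+ replicate 2 brought the difference to 0.18.

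Ccl7, a second monocyte attractant that lies next to Ccl2 on chromosome 11, matched Ccl2 in number 2 and not in number 1. Ccl7 (gene 20306) read 606.8 and 1866.2 in PTIP -/-, against 840.9 and 227.6 in PTIP +/+. The PTIP -/- array was 8.20-fold higher in number 2 and 1.39-fold lower in number 1. PTIP -/- replicate 2 was the highest and PTIP +/+ replicate 2 the lowest of the 4 arrays, and the mean difference was 1.28 ± 0.89 (SE, n = 2 per genotype, limma adjusted p = 0.999). Leaving out PTIP +/+ replicate 2 brought it to 0.34, and leaving out PTIP -/- replicate 2 brought it to 0.47.

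Il18, an interleukin-1 family cytokine stored as a precursor and cut by caspase-1, was higher in PTIP -/- to a like degree in both numbers. Il18 (gene 16173) read 328.4 and 376.1 in PTIP -/-, against 144.3 and 117.6 in PTIP +/+. Both PTIP -/- arrays lay above both PTIP +/+ arrays, which holds for 16.6% of all genes, and no other of the 8 genes was so placed. Both lay below in 0 of 8 genes, against 12.1% of all genes. The mean log2 signal was 8.46 ± 0.14 in PTIP -/- and 7.03 ± 0.21 in PTIP +/+ (SD, n = 2 each), and the folds were 2.28 in number 1 and 3.20 in number 2. The difference of 1.43 ± 0.27 (SE, n = 2 per genotype) was larger than the spread between the replicates, with an unadjusted p of 0.00535 in limma and an adjusted p of 0.999 over all genes. It ran from 1.28 to 1.58 with each array left out. Differences between the numbers enter the error of this fit, and Il18 had the smallest such difference of the 8 genes.

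The gp130 cytokines were dim. Il6, which drives the acute phase response, read 63.0 and 19.2 in PTIP -/-, against 65.1 and 17.3 in PTIP +/+, and was below the filter. The genotypes lay side by side in number 1, where PTIP -/- was 1.03-fold lower, and both number 2 arrays were below 47.68. Lif, named for its action on leukaemia cells and used to keep mouse stem cells undifferentiated, read 85.4 and 122.8 in PTIP -/-, against 106.1 and 193.8 in PTIP +/+ on its brighter probe set. It was 1.24-fold and 1.58-fold lower in PTIP -/- within the numbers, with overlapping genotypes and a mean difference of -0.49 ± 0.43 (SE, n = 2 per genotype, limma adjusted p = 0.999). Leaving out 1 array brought it to -0.051 without PTIP +/+ replicate 2 and to -0.92 without PTIP +/+ replicate 1. The second Lif probe set was below 47.68 on all 4 arrays.

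Csf1, the macrophage growth factor, was lower in PTIP -/- on all 4 of its probe sets and in both numbers. The brightest (gene 12977) read 8803.4 and 4599.8 in PTIP -/-, against 10696.4 and 8344.8 in PTIP +/+. PTIP -/- replicate 2 was the lowest array, the genotypes overlapped, and the folds were 1.22 lower in number 1 and 1.81 lower in number 2 (mean difference -0.57 ± 0.42, SE, n = 2 per genotype, limma adjusted p = 0.999). The second read 7186.9 and 2486.0 against 8083.7 and 6643.7, with 1.12-fold and 2.67-fold lower signal. The third gave 1.22-fold and 2.23-fold lower signal and the fourth 1.48-fold and 2.14-fold lower signal. The probe sets share a gene and the same 4 RNAs, so they are no separate replicates. Without PTIP -/- replicate 2 the difference of the brightest was -0.10.

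**Figure D2:**
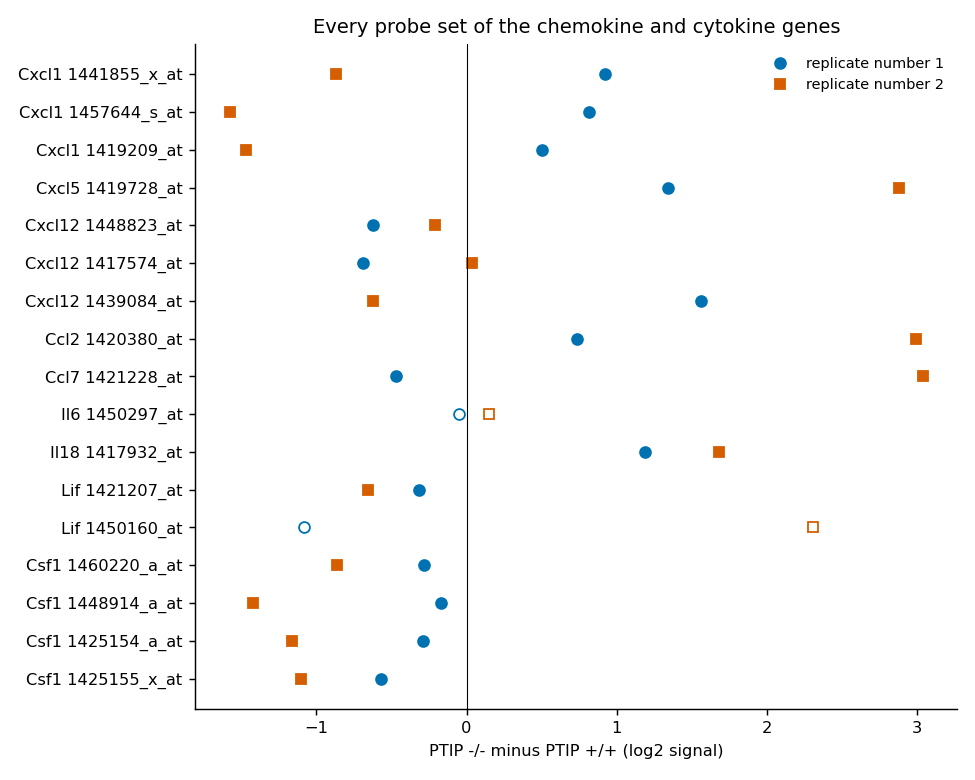
Difference in log2 signal, PTIP -/- minus PTIP +/+, within replicate number 1 (circles) and number 2 (squares) for each of the 17 probe sets; open symbols mark the 2 probe sets whose mean signal was below 47.68. The 3 probe sets of Cxcl1 lie above 0 in number 1 and below 0 in number 2, and the 4 of Csf1 lie below 0 in both.

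Set within the numbers, the 8 tested genes had a larger median absolute difference between the genotypes than all genes, though this did not hold for each gene. The differences were larger in number 2, both for the 8 genes and over all genes. The median absolute difference of the 8 genes was 0.68 in number 1 and 1.27 in number 2, against 0.23 and 0.34 over all genes. Cxcl12 in number 2, at -0.21, was smaller in size than the all-gene median. In number 1, Cxcl5 and Il18 were at least 2-fold higher in PTIP -/- (2 of 8, background 3.7%) and 0 of 8 at least 2-fold lower (2.53%). In number 2, Cxcl5, Ccl2, Ccl7 and Il18 were at least 2-fold higher (4 of 8, 7.03%) and again 0 of 8 at least 2-fold lower (4.86%). Cxcl5 passed the filter through its number 2 arrays alone, so its place in the number 2 count supports nothing. Both numbers together held Cxcl5 and Il18 on the higher side (2 of 8, 0.719%) and 0 of 8 on the lower (0.847%). At 1.5-fold there were 3 of 8 on the higher side, with Ccl2 added (3.43%), and 0 of 8 on the lower (2.21%). The Cxcl5 difference in number 1 lay between signals below 47.68, and once signals were raised to that level Il18 alone met the threshold in both numbers. Opposite signs were seen for Cxcl1 and Ccl7 (2 of 8), where 40.2% of all genes had opposite signs. The genotype difference was the larger one in number 2 for 6 of 8 genes, against 61.4% of all genes. Each number sets 1 array against 1 array, and a test of whether the genotype difference depends on the number has no residual degrees of freedom with 4 arrays, so that dependence was not tested. The genes were chosen with earlier results of these arrays known, and these counts describe them.

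**Figure D3:**
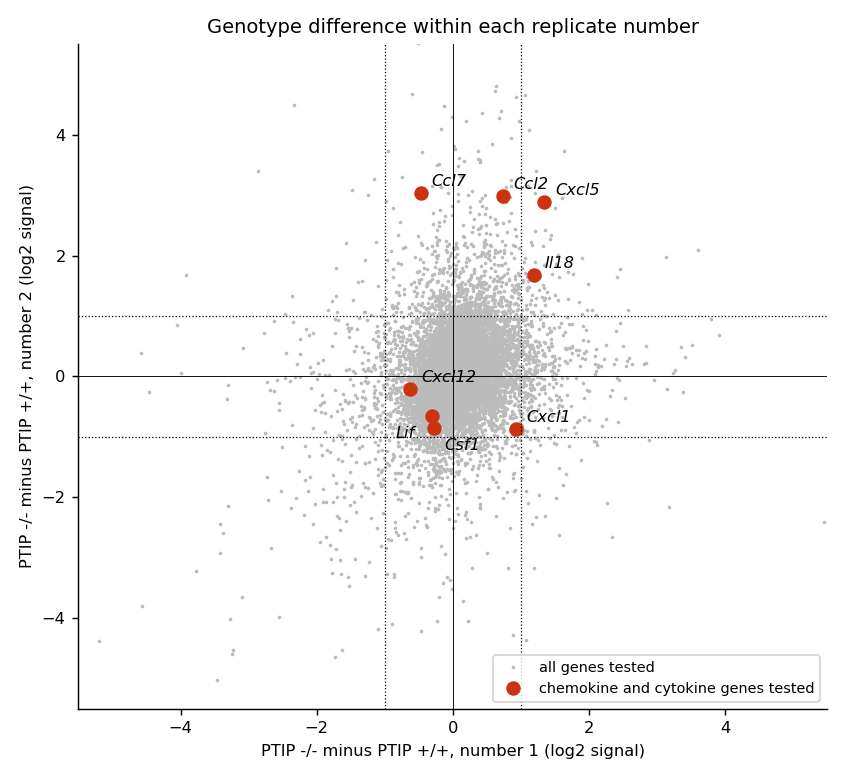
Difference in log2 signal, PTIP -/- minus PTIP +/+, in replicate number 1 (horizontal) and number 2 (vertical) for all 12509 genes tested (grey) and the 8 chemokine and cytokine genes (red); dotted lines mark 2-fold and 4 genes lie outside the axes. Cxcl5, Ccl2 and Ccl7 lie near 3 on the vertical axis, Il18 is past 2-fold on both axes, and Cxcl12, Lif and Csf1 lie below 0 on both.

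Between the replicate numbers these genes differed in both directions, at shares near those over all genes where the arrays did not overlap. In a limma fit with genotype as a term, 80 of 12509 genes (0.64%) differed between number 2 and number 1 at an adjusted p under 0.05, and 0 of the 8 were among them. At an unadjusted p under 0.05 there were 4 of 8, Cxcl5, Cxcl12, Ccl2 and Lif, against 22.8% of all genes. Cxcl5 passed the filter only through number 2, where it is high. Its place in that count, and in the counts between the numbers that follow, supports nothing. Cxcl5 was higher in number 2, at 655.9 and 89.1 in PTIP -/- and PTIP +/+, against 30.9 and 12.2 in number 1. Raising the number 1 signals to 47.68 makes this at least 13.8-fold higher in PTIP -/- and at least 1.87-fold higher in PTIP +/+ (difference 3.64 on measured signals and 2.34 with all signals raised to 47.68). Ccl2 was lower in number 2, at 1736.5 and 218.8 against 3744.3 and 2254.2, by 2.16-fold in PTIP -/- and 10.3-fold in PTIP +/+ (difference -2.24 ± 0.63, SE, adjusted p = 0.18). Both arrays of number 2 were above both of number 1 for Cxcl5 and Lif (2 of 8, background 25.5%) and below them for Cxcl12, Ccl2 and Csf1 (3 of 8, 29.7%).

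In the mean of both genotypes, Cxcl5 and Ccl2 differed at least 2-fold between the numbers on measured signals (2 of 8, 13.4%), and the sizes were unequal between the genotypes for several genes. Within both genotypes, Ccl2 was at least 2-fold lower in number 2 (1 of 8, 3.3%). On measured signals Cxcl5 was at least 2-fold higher in both (1 of 8, 4.36%), but its number 1 signals were below 47.68 and the bound within PTIP +/+ is under 2-fold. Ccl7 was 3.08-fold higher in number 2 within PTIP -/- and 3.69-fold lower in number 2 within PTIP +/+. Cxcl1 was 1.29-fold lower in number 2 within PTIP -/- and 2.67-fold higher within PTIP +/+ on its brightest probe set. On the dimmest of its probe sets it was higher in number 2 in both, by 3.06-fold and 11.9-fold, so the probe set decides its direction within PTIP -/-. Il18 differed least, by -0.05 ± 0.23 (SE, adjusted p = 0.912), and this became 0.14 with arrays centred on their medians. The difference between the numbers was larger than that between the genotypes for 6 of 8 genes, all but Ccl7 and Il18, beside 63.3% of all genes. The highest array was at least 4-fold above the lowest for Cxcl5, Ccl2 and Ccl7 (3 of 8), against 9.5% of all genes. The place of Cxcl5 in this count supports nothing either, since its number 1 signals were below 47.68.

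Among the 9 fibroblast markers tested, the surface proteins Thy1 and Pdgfra differed between the numbers by far more than the rest. Thy1 read 1500.7 and 239.2 in number 2 of PTIP -/- and PTIP +/+, against 14822.9 and 16080.1 in number 1. Pdgfra, the receptor of platelet-derived growth factor, read 174.2 and 583.2 in number 2, against 3563.4 and 5010.1. Neither passed (adjusted p = 0.11 and 0.0736 in limma). The other 7 differed by -0.31 (Pdgfrb) to 0.30 (Col1a1), and the list had a median of -0.00083 between the numbers. The part of Thy1 and Pdgfra in the chemokine differences was not tested.

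**Figure D4:**
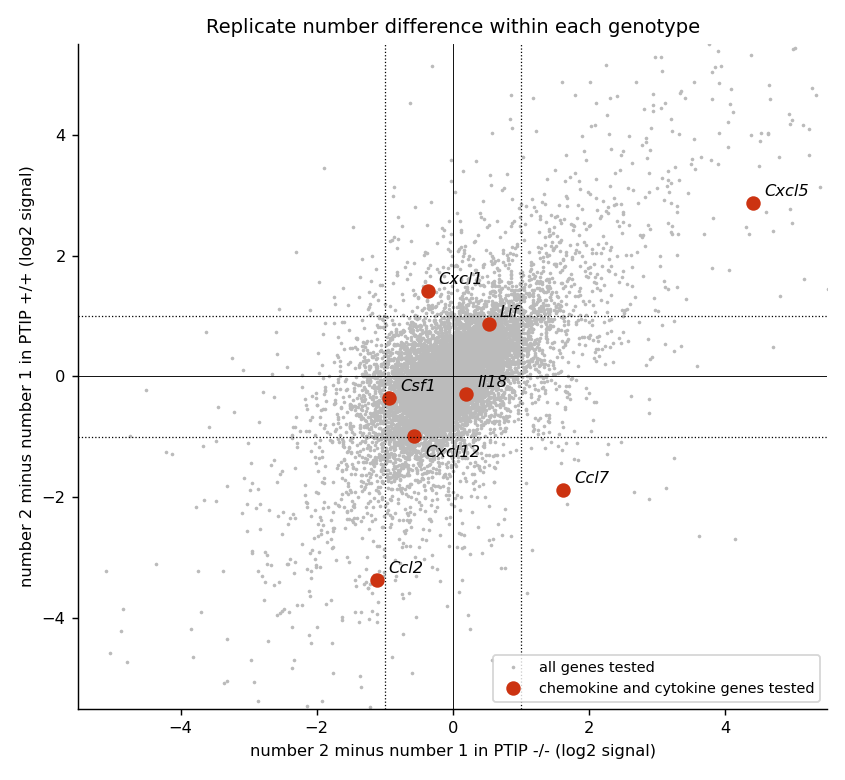
Difference in log2 signal, replicate number 2 minus number 1, in PTIP -/- (horizontal) and PTIP +/+ cells (vertical) for all 12509 genes tested (grey) and the 8 chemokine and cytokine genes (red); dotted lines mark 2-fold and 64 genes lie outside the axes. Cxcl5 lies far to the upper right, Ccl2 to the lower left, and Ccl7 in the lower right, where the numbers differ in opposite directions in the genotypes.

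In the CXC chemokine cluster, the genotype difference of the tested genes had no common direction. Between the numbers, the mean of both genotypes was higher in number 2 for Cxcl5 (3.64), Ppbp (4.01), Cxcl15 (4.13) and Cxcl1 (0.52). Cxcl5 and Ppbp passed the filter through number 2 alone, so their place among these supports nothing. These neighbours were chosen after their values were seen. Cxcl5, Ppbp, Pf4, Cxcl3, Cxcl15, Cxcl1 and Cxcl2 follow each other on chromosome 5. Ppbp, which gives rise to a platelet chemokine, read 31.4 and 316.3 in PTIP -/-, against 36.0 and 932.5 in PTIP +/+, so it was near background in number 1 and 2.95-fold lower without PTIP in number 2. Cxcl15, a chemokine known from mouse lung, read 54.2 and 426.0 against 56.5 and 2195.9, with 5.15-fold lower signal in number 2. Cxcl1, Ppbp and Cxcl15 were thus lower in PTIP -/- in number 2, while Cxcl5 in the same cluster was higher. Pf4 read 54.8 and 126.9 against 60.5 and 3.4, and Cxcl2 and Cxcl3 were below 47.68 on all arrays.

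In the CC cluster on chromosome 11, only part of the genes gave a usable signal. Ccl2, Ccl7 and Ccl8 were all higher in PTIP -/- in number 2, while Ccl7 was lower in number 1. Ccl8 read 152.7 and 62.2 in PTIP -/-, against 114.1 and 44.8 in PTIP +/+, 1.34-fold and at least 1.30-fold higher within the numbers. Ccl11 and Ccl12, which lie between Ccl7 and Ccl8, were below 47.68 on all arrays, and Ccl1 read 75.3 and 21.4 against 68.0 and 34.4. The number 2 fold of Ccl8 is a lower bound, since its PTIP +/+ signal was below 47.68, and it cannot be set against those of Ccl2 and Ccl7.

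**Figure D5:**
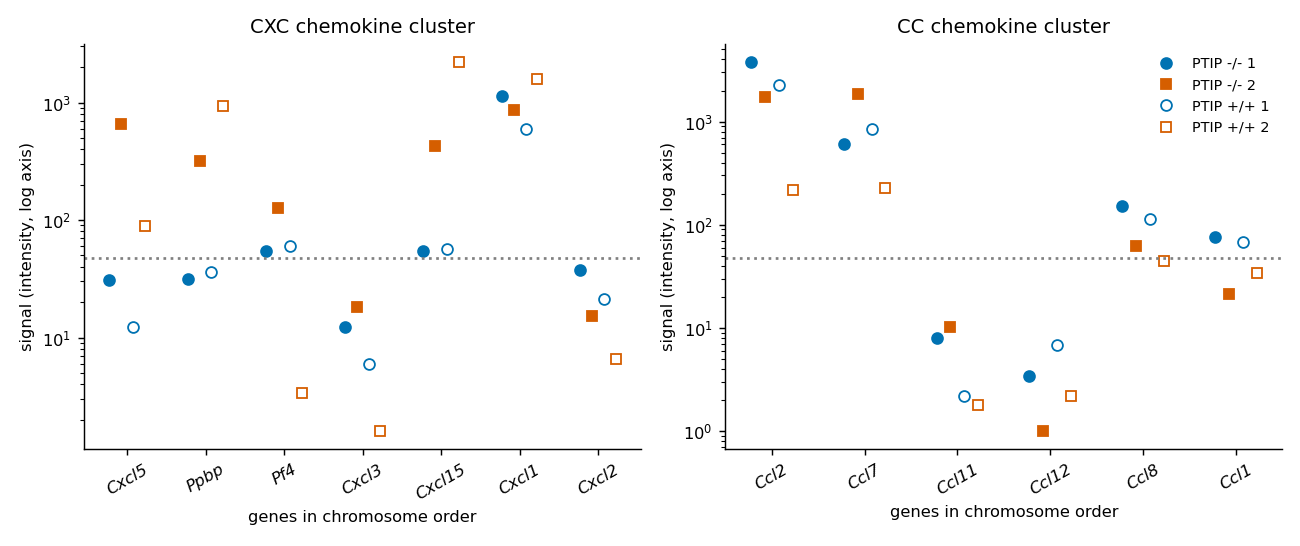
Signal (linear intensity on a log axis) of neighbouring chemokine genes in chromosome order, the CXC cluster on the left and the CC cluster on the right, for PTIP -/- (filled) and PTIP +/+ (open) in number 1 (circles) and number 2 (squares); the dotted line marks 47.68. In number 2, Ppbp, Cxcl15 and Cxcl1 have the open square above the filled one, whereas Cxcl5, Ccl2 and Ccl7 have the filled square above the open one.

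Other chemokines and cytokines were mixed and often dim. Of 30 other chemokine genes with a probe set, 14 were tested, 10 were higher and 4 lower in PTIP -/- with a median of 0.35, and 0 passed in limma, at adjusted or unadjusted p under 0.05. Cxcl10, an interferon-induced chemokine that attracts T cells, read 132.4 and 153.9 against 85.1 and 5.5, which is 1.56-fold higher in number 1 and at least 3.23-fold higher in number 2. Cxcl15 and Ppbp are given above. Cxcl13, a B cell attractant, read 127.9 and 51.7 against 127.2 and 11.8. Of 28 other cytokines, 12 were tested, with 8 higher, 4 lower, a median of 0.05 and 0 passing at either threshold. Tslp, a cytokine of epithelial and stromal cells that acts on dendritic cells, read 135.4 and 108.8 against 251.4 and 1857.2, and Kitl, the ligand of Kit, 884.5 and 225.7 against 2531.0 and 989.1. Kitl was at least 2-fold lower within both numbers, while Il7 and Osm differed by 0.61 and 0.54. Tnf, Il1a, Il33 and Csf2 were below 47.68 on all arrays.

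Among receptors, those for the CXC members were dim. Of 9 chemokine receptors tested, 5 were higher and 4 lower (median 0.05), and 0 passed at either threshold. Cxcr2 and Cxcr4, the receptors of Cxcl1, Cxcl5 and Cxcl12, were below 47.68 on all arrays, and Ackr3, a scavenger receptor of Cxcl12, was below the filter at 27.9 and 284.7 against 3.2 and 70.8. Among the 9 tested, the largest difference was that of Ackr4, a scavenger of other chemokines, at 1002.2 and 670.0 against 844.9 and 368.9, followed by Cxcr5 (-0.51), Ccr6 (0.38) and Ccr2, the receptor of Ccl2 and Ccl7 (0.33). Of 9 tested receptors and binding partners of the cytokines, 4 were higher and 5 lower (median -0.10), with 0 passing at either threshold. Lifr, which binds Lif, read 739.1 and 741.7 against 638.1 and 169.1, and the gp130 gene Il6st 1625.3 and 2324.3 against 1978.8 and 4685.3. Osmr and Cntfr, partners in gp130 receptors, differed by -0.58 and -0.52. Il18rap, a chain of the Il18 receptor, followed the numbers, at 70.6 and 62.7 in number 2 of PTIP -/- and PTIP +/+, against 1015.8 and 1133.2 in number 1 (adjusted p = 0.0412 for the number in limma), while the other chain, Il18r1, was below 47.68 throughout.

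NF-kB pathway genes were split, with 18 of 28 higher, 10 lower and a median of 0.10 in PTIP -/-. None passed in limma (0 of 28), and 1 did at an unadjusted p under 0.05. That gene was Nfkbie, an inhibitor of NF-kB, at 65.5 and 106.1 against 28.3 and 35.2, at least 1.75-fold higher with an adjusted p of 0.999. Nfkbie was below 47.68 in both PTIP +/+ arrays and passed the filter through the PTIP -/- arrays, so this call supports nothing. Tlr2, a receptor for bacterial lipoproteins, read 281.5 and 178.8 against 135.1 and 54.8, more than 2-fold higher within both numbers. Tlr3, a receptor for double-stranded RNA, read 96.2 and 121.8 against 6.4 and 75.5, and the kinase Irak2 1268.2 and 946.0 against 1078.1 and 311.7. Of 16 JAK and STAT3 pathway genes, 6 were higher and 10 lower (median -0.13), 0 passed at either threshold, and the largest differences were those of the kinase Jak1 (-0.67), the feedback inhibitor Socs3 (-0.62), Pias1 (-0.47) and Socs5 (-0.45). Among 11 genes of cytokine processing and mRNA decay, 6 were higher and 5 lower (median 0.03), and 0 passed after adjustment. At an unadjusted p under 0.05 there was 1, the mRNA decay factor Zfp36l2, at 5233.1 and 4960.1 against 7789.6 and 12291.0. Nlrp3, an inflammasome sensor, read 141.0 and 11.4 against 61.7 and 102.2, and Gsdmd, the pore former, differed by -0.50. Zc3h12a, an RNase that cuts cytokine mRNAs, was at least 1.51-fold higher in PTIP -/-, with both PTIP +/+ signals below 47.68. Casp1, which cuts the Il18 precursor, was below 47.68 on all arrays.

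The genes most like the 3 widest-ranging members were found by the Euclidean distance between log2 signals centred on each gene's mean over the 4 arrays, among 11870 genes. Nearest to Cxcl5 were Selp (distance 0.41), Rgs5 (0.44) and Celsr1 (0.86). Nearest to Ccl2 were Hs3st6 (0.12), Nrep (0.25) and Tes (0.33), and nearest to Ccl7 were Vsir (0.48), Rnf128 (0.52) and Myh11 (0.55). Nrep, for example, read 1573.0 and 873.5 in PTIP -/-, against 1167.6 and 113.4 in PTIP +/+, with PTIP +/+ replicate 2 standing below the rest as for Ccl2. Of the 8 genes themselves, Cxcl12 and Csf1 were the closest pair, at a distance of 0.54, and Cxcl12 ranked 686 among the genes nearest to Csf1. With 4 arrays many genes share such a pattern.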

How the data were processed

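Per the labels, total RNA was biotin-labelled and hybridised to 4 Affymetrix arrays. The deposited values are linear intensities, 1 per array for each of 45101 probe sets. RMA is named in the submitters' processing notes, yet the values are linear, hold a 0 and share a mean of 500 once 2% is trimmed at each end. Background correction and probe summary are not stated.

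After 64 controls were removed, log2 was taken of the deposited intensities (the 0 set to 0.1). Probe sets with 1 symbol numbered 34945, with several 932 and with none 9160. Of those with 1 symbol, 34741 matched a RefSeq (GRCm38.p6) gene and took its symbol, whether or not it differed. The brightest probe set by mean log2 stood for each of 18193 genes, and the 12509 genes at or above the 40th percentile, 47.68, were tested. Signals of a dimmer group wholly under 47.68 were set to it, which makes the fold a bound, written "at least". Genotypes were fitted in limma 3.58.1 (R 4.3.3, lmFit, eBayes) without covariates, and replicate numbers with genotype as a term. P-values were Benjamini-Hochberg adjusted over all genes tested, and SE is the moderated one. The fit was tested on simulated data with noise independent between arrays. Same-numbered arrays deviate together in these data, so the simulation does not check the genotype p-values under that structure.

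The 10 genes and the other lists were chosen with earlier results of these data known. The rule for named genes took all 10, up to 4 genes per list by size of genotype difference, each marker list's brightest gene and the 3 nearest genes of the 3 widest-ranging members; further genes, such as dim receptors and ligands, were picked with their values in view. Alternatives were quantile normalization, median centring, no filter, a 60th percentile filter, averaged probe sets, every probe set, a variance trend with robust moderation, signals raised to 47.68, the replicate block, a 1.5-fold threshold and each array left out. With 4 arrays, precision is low throughout.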

Additional observations from a re-analysis of the deposited data

How the results depend on the processing

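No gene was called between the genotypes under any alternative tried (0 at adjusted p under 0.05, with 164 to 982 genes at an unadjusted p under 0.05), the upper end being the fit with the replicate block. The samples share only a number: across genes, which are not independent, the deviations of same-numbered arrays from their genotype means correlated at 0.69, and the block left the calls at 0. At an unadjusted p under 0.05 the block gave 3 of the 8 genes, Cxcl5, Ccl2 and Il18, each at a limma adjusted p of 0.601, against 7.85% of all genes, where the fit without it gave Il18. Both number 1 signals of Cxcl5 were below 47.68, so its place in that count supports nothing. The genotype differences of Il18, Ccl2, Ccl7, Lif and Csf1 kept their direction under every alternative run for them. Cxcl1 turned to -0.15 with median centring and to -0.28 over the mean of its probe sets, and ran from -0.68 to 0.74 with an array left out. Cxcl5 ran from -0.094 to 4.31 and Cxcl12 from -0.91 to 0.076 with an array left out. Fits with an array left out have no number term, so these ranges mix number with genotype. Between the numbers, Ccl7 turned to 0.058 and Il18 to 0.14 with median centring, which moves the median of all genes to -0.13 between genotypes and 0.14 between numbers, from 0.05 and -0.05. The Cxcl5 difference between the numbers was 2.34 with signals raised to 47.68, against 3.64 as measured; its limma adjusted p ran from 0.0257 (variance trend) to 0.328 (no filter) and is no test, since Cxcl5 passed the filter through number 2 alone. Over the mean of its probe sets Cxcl12 differed by -0.091 between genotypes and -0.29 between numbers, and Cxcl1 by 1.62 between numbers.

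The 80 genes called between the numbers became 188 with quantile normalization, 207 with median centring, 0 with no level filter (2401 unadjusted), 351 with the 60th percentile filter, 893 with a variance trend and 365 with signals raised to 47.68, and ran from 0 to 85 with an array left out and no genotype term (0 without PTIP -/- replicate 1, PTIP +/+ replicate 1 or PTIP +/+ replicate 2). Of all genes, 90 were at least 2-fold higher and 106 at least 2-fold lower in PTIP -/- within both numbers. The higher count was 57 with quantile normalization, 40 with median centring, 552 with no filter and 34 with the 60th percentile filter. It was 173 over every probe set, 57 with signals raised to 47.68 and 429 at 1.5-fold. The lower count was 133 with quantile normalization, 154 with median centring, 297 with no filter and 77 with the 60th percentile filter. It was 182 over every probe set, 90 with signals raised to 47.68 and 276 at 1.5-fold. Members higher in both came to 1 in place of 2 with quantile normalization, median centring, the 60th percentile filter and signals raised to 47.68. The last 2 remove or raise Cxcl5 by construction. Median centring took away Il18 and left Cxcl5. It lowers all number 1 differences alike, as the array medians were 97.8 in PTIP -/- and 83.2 in PTIP +/+. There Il18 (1.19) lay nearer the 2-fold threshold than Cxcl5 (1.34). Which of the 2 fell out with quantile normalization was not recorded.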
